A study of Mus musculus with 6 samples.

Results

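Toll-like receptors are membrane proteins that recognise molecular patterns of microbes and of damaged cells, and inflammasomes are cytosolic complexes that activate the protease caspase-1. The genes described here were the 10 rows of the expression tables named Tlr2, Tlr3, Tlr4, Tlr7, Tlr9, Myd88, Nlrp3, Pycard, Casp1 and Il18, of 27378 genes listed in all. The rule takes them by name alone and uses no measured value. Of the 10, 5 had a mean of at least 1 FPKM (fragments counted per length of gene and depth of library) over the 6 libraries: Tlr3, Tlr7, Myd88, Casp1 and Il18. The other 5, Tlr2, Tlr4, Tlr9, Nlrp3 and Pycard, lay under 1.

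Whole brains of wild-type male C57BL/6J mice, an inbred laboratory strain, were profiled by RNA sequencing. The PS group (3 libraries) was exposed to polystyrene nanoplastics, plastic particles of the environment, by way of the nose for 28 days, and the control group (3 libraries) was given sterile distilled water intranasally over the same 28 days. Particle size and dose are not analysed here. The comparison asks how nasal exposure to such particles alters gene expression in the brain, within a study of brain damage by them. Libraries are numbered within a group, and nothing in the labels says that each is a separate animal, so p-values measure only the spread between these libraries, which may be technical.

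Toll-like receptors 2 and 4 sit at the cell surface and recognise bacterial lipoproteins and lipopolysaccharide, while receptors 3, 7 and 9 sit in endosomes and recognise nucleic acids. Except for receptor 3, which signals through TRIF, the receptors recruit the adaptor MyD88, whose signal activates NF-kappaB. That signal raises transcription of inflammasome genes, and a further trigger lets the sensor NLRP3 assemble with the adaptor ASC (encoded by Pycard) and pro-caspase-1, which cleaves the precursors of interleukin-1 beta and interleukin-18. In brain these genes are best known from microglia, the resident macrophages, and several are also used by astrocytes, neurons and vessel cells.

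The promoters show which regulatory letters lie before these genes, and they are given for the 4 members whose promoter held any of the 3 motifs searched. Of the 10 members, 8 had a promoter in the RefSeq table (build GRCm38.p6), with 9 promoters between them, and Tlr4 and Tlr7 had none. The 250 bases before the transcription start are printed 5′ to 3′ on the strand of the gene. Capitals mark a match to an NF-kappaB motif (GGG, any 3 bases, TTCC), an interferon regulatory factor motif (GAAA, any 2 bases, GAAA) or a motif of PU.1 (GAGGAAGT), the macrophage transcription factor, on either strand. No matches overlapped.
Tlr2, chr3:83841609-83841858, minus strand: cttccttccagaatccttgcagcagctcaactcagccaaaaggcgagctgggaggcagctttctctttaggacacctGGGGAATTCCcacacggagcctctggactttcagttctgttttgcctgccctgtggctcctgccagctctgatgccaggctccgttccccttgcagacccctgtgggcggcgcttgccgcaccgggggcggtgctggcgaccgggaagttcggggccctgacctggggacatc
Tlr3, chr8:45410381-45410630, minus strand: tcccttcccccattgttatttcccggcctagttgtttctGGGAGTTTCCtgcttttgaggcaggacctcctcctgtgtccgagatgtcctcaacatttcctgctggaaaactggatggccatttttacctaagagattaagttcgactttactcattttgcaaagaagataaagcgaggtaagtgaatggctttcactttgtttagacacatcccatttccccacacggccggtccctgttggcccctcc
Myd88, chr9:119340019-119340268, minus strand: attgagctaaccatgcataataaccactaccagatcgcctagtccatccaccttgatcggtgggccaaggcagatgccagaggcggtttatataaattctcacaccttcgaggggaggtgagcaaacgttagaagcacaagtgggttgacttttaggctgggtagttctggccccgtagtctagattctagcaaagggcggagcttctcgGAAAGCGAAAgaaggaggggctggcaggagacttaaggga
Pycard, chr7:127993868-127994117, minus strand: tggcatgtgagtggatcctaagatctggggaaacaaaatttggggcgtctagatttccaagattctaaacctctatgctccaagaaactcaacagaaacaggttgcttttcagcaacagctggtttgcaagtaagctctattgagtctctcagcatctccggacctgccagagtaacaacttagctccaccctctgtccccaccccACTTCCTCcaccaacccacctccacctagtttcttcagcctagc
The NF-kappaB letters stood in Tlr2 and Tlr3, starting 173 and 211 bases before the start, and in 4.65% of all 32851 promoters of the table. The interferon regulatory factor letters stood in Myd88, 40 bases before the start, and in 2.98% of all promoters. The PU.1 letters stood in Pycard, on the opposite strand 44 bases before the start, and in 2.44% of all promoters. The promoters of Tlr9, Casp1 and Il18 and both promoters of Nlrp3 held none of these letters in this window. These positions are of build GRCm38.p6 and not of the build of the expression files.

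The libraries were of like depth, with 39239183 to 40335590 reads behind the FPKM values. Of 12229 genes with a mean of at least 1 FPKM, 20, or 0.164%, were called at an adjusted p under 0.05, all lower in PS (limma on log2(FPKM + 1)). A fit blocked by replicate number called 48, of which 3 were higher, and a fit with sample weights called 632, of which 297 were higher. The median log2 fold change of all tested genes was 0.003. In what follows, levels are FPKM, and group values are means ± SD (n = 3 libraries per group). Every log2 fold change sets PS against control in log2(FPKM + 1), so differences of low genes appear smaller than they are. Ratios are of mean FPKM.

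None of the 5 tested members was called, against 0.164% of all tested genes. None was called with the replicate block, with sample weights or by limma-voom on recovered reads either, where 0.393%, 5.17% and 0.237% of the tested genes were. With no filter on low values, all 10 could be tested and again none was called by limma, where 0.00377% of 26556 genes were. Limma-voom on recovered reads with no filter called 0 of the 10 as well, against 0.0414% of all genes. At an unadjusted p under 0.05, Tlr7, Tlr4 and Nlrp3 passed in the fit with no filter, and Tlr7 and Tlr4 in limma-voom. In the limma fit with no filter 2.78% of all genes passed as lower in PS and 2.68% as higher, and in limma-voom with no filter 2.7% and 2.5%. The PS and control values did not overlap for the same 3 members, lower in PS for Tlr4 and Tlr7 and higher for Nlrp3. Of 19173 genes above 0 in all 6 libraries, 6.19% were lower and 5.04% higher in PS without overlap.

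**Figure D1:**
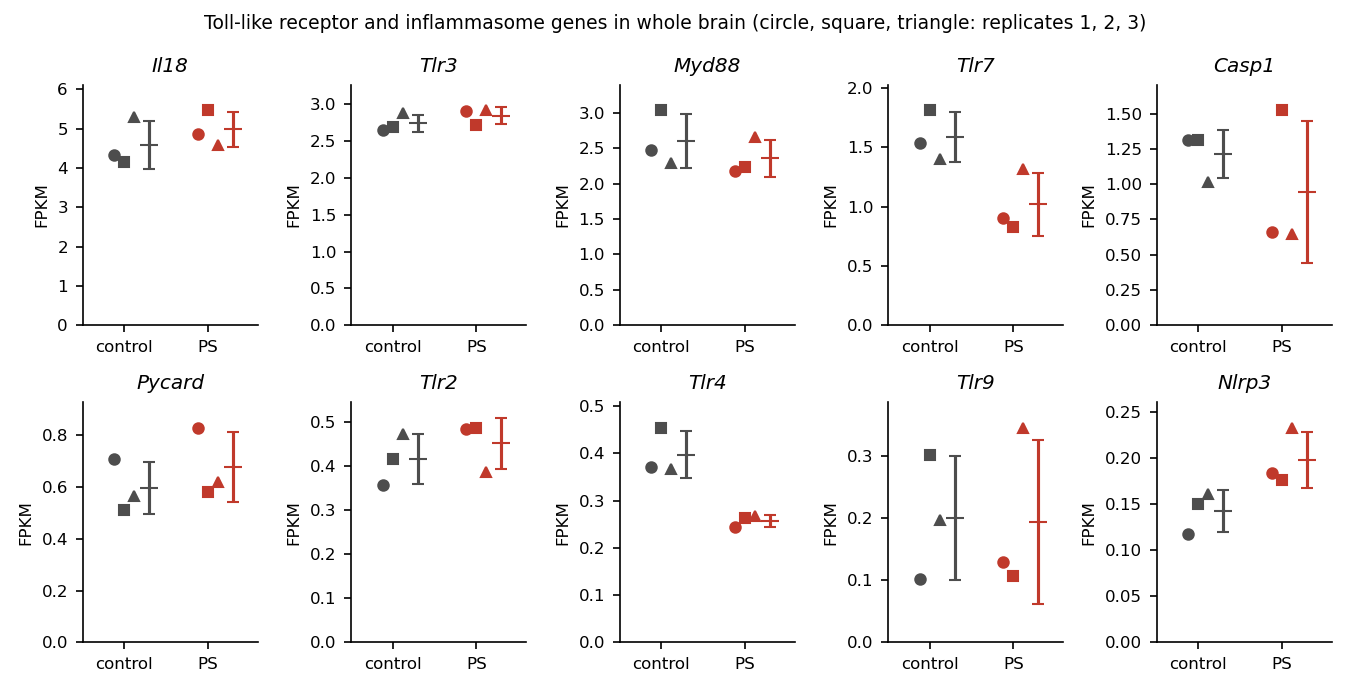
FPKM (vertical axes, each from 0) of the 10 genes in control and PS libraries, ordered by mean level. Points are libraries, with the shape giving the replicate number, and bars are means ± SD of 3 libraries. Tlr7 and Tlr4 lie lower in all PS libraries than in any control library, Nlrp3 lies higher, and the groups overlap in the other 7 genes.

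By level, which is scaled for gene length, the members spanned from 4.786 FPKM for Il18 to 0.1703 for Nlrp3. The order was Il18, Tlr3 (2.792), Myd88 (2.482), Tlr7 (1.301), Casp1 (1.079), Pycard (0.6367), Tlr2 (0.4349), Tlr4 (0.3275), Tlr9 (0.1969) and Nlrp3. Il18 stood above Tlr3, Myd88 above Tlr7, and Pycard above Tlr2 with no overlap of their 6 values. The ranges of the other neighbours overlapped, and Tlr9 exceeded Nlrp3 in 3 of 6 libraries. Il18 ranked above 69.3% and Nlrp3 above 41.5% of the 26556 genes detected in any library.

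Of the surface receptors, Tlr4, the receptor for bacterial lipopolysaccharide, was lower in PS brains. It stood at 0.3714, 0.4545 and 0.366 FPKM in control replicates 1, 2 and 3 and at 0.2435, 0.2623 and 0.2674 in PS replicates 1, 2 and 3. These values rested on 124, 150 and 122 reads in control and 82, 89 and 90 in PS, so every PS library had fewer. The PS mean was 0.649 times the control mean (0.3973 ± 0.0496 against 0.2578 ± 0.0126). In log2 terms PS differed by -0.15, SE 0.033, with 95% limits of -0.23 and -0.07 (limma with no filter, adjusted p = 0.596). Limma-voom on the reads gave -0.61 (adjusted p = 0.645), so the difference did not pass after adjustment in either fit. The spread of Tlr4 reads within groups, 9.09% of the mean, was about that of counting error alone, 9.76%.

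Tlr2, the receptor for bacterial lipoproteins, stood at 0.3589, 0.4171 and 0.4742 FPKM in control and 0.4846, 0.4885 and 0.3863 in PS. PS replicate 3 lay within the control range, so the groups overlapped, on 47 to 65 reads a library. Its log2 fold change was 0.04, with an interval from -0.08 to 0.15 (limma with no filter, adjusted p = 0.924), and 0.0069 without control replicate 1 and 0.07 without PS replicate 3. The difference between Tlr2 and Tlr4 in their response was not tested.

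Of the endosomal receptors, Tlr7, a receptor for single-stranded RNA, was lower in PS. Its control values were 1.54, 1.812 and 1.401 FPKM (338, 393 and 307 reads), and its PS values 0.9037, 0.8297 and 1.32 (200, 185 and 292 reads). PS replicate 3 was the highest of the PS libraries and lay just under the lowest control. The PS mean was 0.642 times the control mean (1.584 ± 0.209 against 1.018 ± 0.264). The log2 fold change was -0.36, SE 0.109, with an interval from -0.61 to -0.12 (limma adjusted p = 0.565). It was negative in all 17 alternatives that could be fitted for it, with adjusted p from 0.0513 with sample weights to 1. As the groups did not overlap, leaving out a library could not turn that sign. The within-group spread of its reads, 20.2%, exceeded the counting error of 6.05%.

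Tlr3, the receptor for double-stranded RNA, was the highest and the steadiest of the receptors. It stood at 2.652, 2.688 and 2.876 FPKM in control and 2.901, 2.718 and 2.917 in PS, and the groups overlapped. The log2 fold change was 0.04, with an interval from -0.11 to 0.20 (limma adjusted p = 0.983), and 0.02 without control replicate 1 and 0.07 without control replicate 3. Its reads, 533 to 591 a library, varied within groups by 4.06%, near the counting error of 4.22%.

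Tlr9, the receptor for DNA with unmethylated CG, was measured on few reads. Its values were 0.1016, 0.301 and 0.1963 FPKM in control (14, 41 and 27 reads) and 0.1295, 0.1071 and 0.3456 in PS (18, 15 and 48 reads). Control replicate 2 and PS replicate 3 were the highest of their groups, and the groups overlapped over most of their range. On these reads its log2 fold change was -0.009, with an interval from -0.24 to 0.22, and its sign was positive in 4 of 16 alternatives (limma with no filter, adjusted p = 1). It ran from -0.10 without PS replicate 3 to 0.05 without control replicate 2. The within-group spread, 59.2%, was larger than the counting error of 19.2%. Summed over the 5 receptors, the libraries held 5.024, 5.672 and 5.313 FPKM in control and 4.662, 4.405 and 5.236 in PS, which overlapped.

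Myd88 encodes the adaptor that most of these receptors share. It stood at 2.484, 3.039 and 2.293 FPKM in control and 2.179, 2.24 and 2.658 in PS. PS replicate 3 lay above control replicates 1 and 3, so the groups overlapped. The log2 fold change was -0.10, with an interval from -0.32 to 0.12 (limma adjusted p = 0.975). It ran from -0.01 without control replicate 2 to -0.16 without PS replicate 3.

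**Figure D2:**
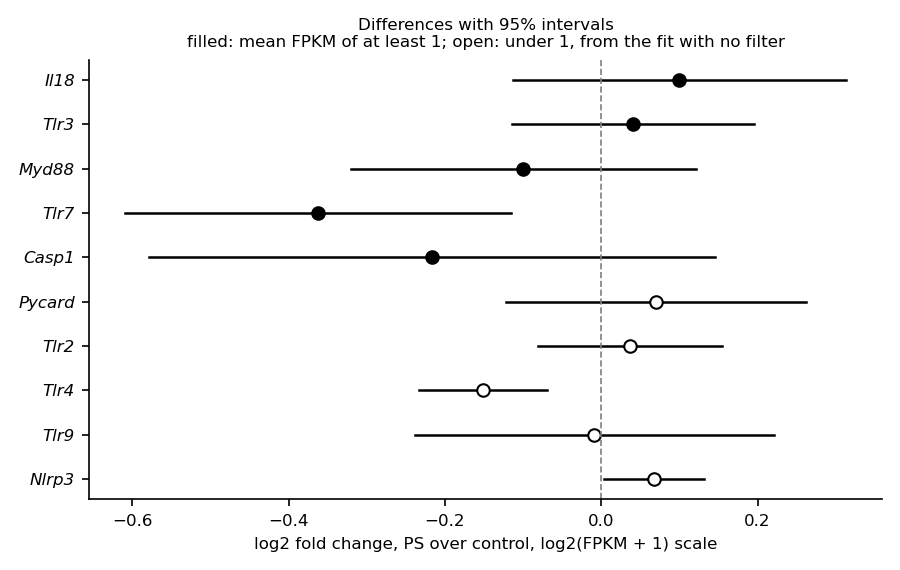
Log2 fold change of PS over control (horizontal axis, log2(FPKM + 1) scale) for the 10 genes, with 95% intervals from limma. Filled points are the 5 genes with a mean of at least 1 FPKM and open points the 5 under it, taken from the fit with no filter; the unadjusted intervals of Tlr7 and Tlr4 lie below 0, that of Nlrp3 starts just above 0 at 0.0035, and the other 7 span 0.

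Nlrp3, the inflammasome sensor, was the lowest member and the only member whose PS values all lay above the control values. It stood at 0.1174, 0.1501 and 0.1609 FPKM in control (19, 24 and 26 reads) and at 0.1838, 0.1764 and 0.233 in PS (30, 29 and 38 reads). The PS mean was 1.38 times the control mean (0.1428 ± 0.0226 against 0.1977 ± 0.0307). In limma its log2 fold change was 0.07, with an interval from 0.0035 to 0.13 (limma with no filter, adjusted p = 0.896). Limma-voom gave 0.46, SE 0.296 (adjusted p = 0.871). The gap between the highest control and the lowest PS library was 3 reads, from 26 to 29, where counting error alone is 19.3% of the mean.

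Pycard, which encodes the adaptor ASC, stood at 0.708, 0.5133 and 0.5673 FPKM in control and 0.8307, 0.5806 and 0.6204 in PS. Each PS library lay above the control library of its number, as also for Tlr3 and Nlrp3, while only PS replicate 1 lay above the whole control range. The log2 fold change was 0.07, with an interval from -0.12 to 0.26 (limma with no filter, adjusted p = 0.921). It was also 0.07 with the replicate block, from which no p-value was read at this level. It was 0.0057 without PS replicate 1 and 0.12 without control replicate 1.

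Casp1, the protease that inflammasomes activate, split the PS group. It stood at 1.315, 1.314 and 1.017 FPKM in control, and at 0.6604, 1.524 and 0.6442 in PS. PS replicates 1 and 3 (40 and 39 reads) lay below all control libraries (61 to 79 reads), while PS replicate 2 (93 reads) lay above them. The resulting log2 fold change was -0.22, with an interval from -0.58 to 0.15 (limma adjusted p = 0.946), and it ran from -0.42 without PS replicate 2 to -0.11 without PS replicate 3. The within-group spread of 39.4% was larger than the counting error of 12.5%.

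Il18, the cytokine precursor cut by caspase-1, was the highest member. It stood at 4.323, 4.157 and 5.293 FPKM in control and 4.874, 5.469 and 4.597 in PS, on 423 to 572 reads a library. Control replicate 3 lay above PS replicates 1 and 3, so the groups overlapped. PS differed from control by a log2 fold change of 0.10, with an interval from -0.11 to 0.31 (limma adjusted p = 0.975). That value ran from 0.04 without PS replicate 2 to 0.19 without control replicate 3. In RefSeq GRCm38.p6 the Il18 locus overlaps Bco2 and Tex12, which stood at 0.907 and 0.00681 FPKM here. Whether reads were counted by strand is unknown, so reads of Il18 and of these genes may not be told apart. No other member overlapped an annotated gene.

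The genes whose log2 values ran most like each tested member, by Pearson's r over 6 libraries from both groups, were Elmo1 (0.999), Ankrd28 (0.984) and Acacb (0.976) for Tlr3. For Tlr7 they were Flcn (0.994), Unc119b (0.993) and Cttnbp2nl (0.992). For Myd88 they were Atg16l2 (0.987), Ppfia3 (0.986) and Jag2 (0.983), and for Casp1 they were Mcm7 (0.979), Zfp689 (0.965) and Efna3 (0.959). For Il18 they were Eif4h (0.999), Krtcap2 (0.996) and Sf3b2 (0.996). With 6 libraries and 12229 genes such values are a description of these libraries, and no member stood among the 3 most like another.

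Microglial markers were present in all libraries, and as a list they did not separate the groups. All 18 had a mean of at least 1 FPKM. Their summed level ran from 328 to 350.7 FPKM in control and from 290.3 to 362.6 in PS. Of the 18, 8 were higher and 10 lower in PS, none was called, and the median log2 fold change was -0.01. With sample weights 3 of the 18 were called, where 5.17% of all tested genes were. All 3 were higher: Cx3cr1, P2ry12 and Gpr34 (limma adjusted p = 0.00225, 0.0289 and 0.037), the last named because it was a call. Cx3cr1, the fractalkine receptor of microglia, stood at 7.639, 9.337 and 8.464 FPKM in control and 10.93, 11.89 and 11.11 in PS, higher in every PS library (log2 fold change 0.38, limma adjusted p = 0.22). Aif1, which encodes the microglial protein IBA1, stood at 2.843, 3.074 and 3.117 in control and 2.017, 2.46 and 2.723 in PS, lower in every PS library (-0.24, limma adjusted p = 0.751). Of the other defining markers, these overlapped between groups: the purinergic receptor P2ry12 was at 8.893 ± 0.924 and 10.15 ± 0.517, Tmem119 at 8.638 ± 0.672 and 9.721 ± 0.792, and the growth factor receptor Csf1r at 23.2 ± 2.24 and 21.53 ± 1.04 FPKM.

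Tlr7 and Tlr4 were also lower in PS relative to the summed level of the 18 markers. The 5 markers given with their values made a small part of this sum. They held 48.86 FPKM in control replicate 1 and 57.67 in PS replicate 3. Ratios to single markers were not taken, and Aif1 was itself lower in every PS library. Per 100 FPKM of summed microglial markers, Tlr7 was at 0.47, 0.517 and 0.412 in control and 0.311, 0.253 and 0.364 in PS. Tlr4 was at 0.113, 0.13 and 0.108 in control and 0.0839, 0.0801 and 0.0738 in PS. Neither ratio to this sum overlapped between groups. Only Tlr7 and Tlr4, already lower in PS without overlap, were divided by this sum, so the ratios are no separate evidence. Such ratios were not taken for other genes. With each library rescaled to the mean log2 value of these markers, an alternative chosen after seeing the data, the log2 fold change of Tlr7 was -0.37 (limma adjusted p = 0.458). In whole tissue, fewer cells of a type and less RNA per cell cannot be told apart.

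**Figure D3:**
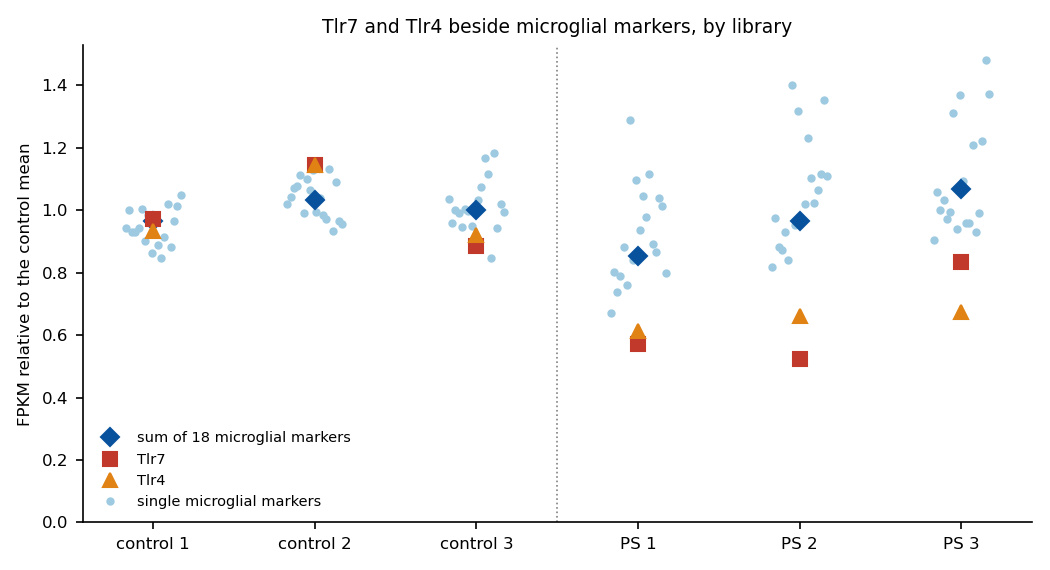
FPKM of Tlr7 (squares), Tlr4 (triangles), the sum of 18 microglial markers (diamonds) and each marker alone (small points), relative to the mean of the 3 control libraries (vertical axis, from 0), in each of the 6 libraries. Tlr7 and Tlr4 lie under the marker sum in all 3 PS libraries, and the single markers spread to both sides of 1.

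Endothelial cells are known to carry Tlr4. The summed level of 10 endothelial markers was 83.8 to 97.37 FPKM in control and 75.01 to 82.08 in PS. Of the 10, 9 were lower, as were 5948 of all 12229 tested genes. Without overlap 4 were lower, where 6.19% of genes above 0 in all 6 libraries were. In the main fit 1 was called, where 0.164% of all tested genes were. It was Vwf (limma adjusted p = 0.0101), named because it was the call. Of 5 red-cell genes all were lower without overlap, where 6.19% of genes above 0 in all 6 libraries were. Their sums were 127.4 to 196.4 in control and 56.72 to 99.49 in PS. None of these genes was called, and 4 were with the replicate block, where 0.393% of all tested genes were. Oligodendrocyte lineage markers were higher in 9 of 10, where 51.4% of all tested genes were. Without overlap 4 of the 10 were higher, where 5.04% of genes above 0 in all 6 libraries were. Their sums ran from 1048 to 1513 in control and from 1447 to 1622 in PS. The part of these cells in the values of Tlr4, Tlr7 and Nlrp3 was not tested. Markers of monocytes and neutrophils, which also carry these receptors, varied by library, and their sums overlapped between groups. The sums were 6.817 to 69.88 FPKM in control, with replicate 3 highest, and 7.476 to 35.61 in PS, with replicate 1 highest. Of these 11 markers 5 were tested, and all 5 were lower in PS, with a median log2 fold change of -0.47. None was called (lowest limma adjusted p = 0.939). Border macrophage markers summed to 4.659 to 6.34 in control and 4.812 to 6.279 in PS, and lymphocyte markers to 1.175 to 2.233 and 1.473 to 2.596. No marker of these lists was at 0 in all 6 libraries.

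The rest of the pathway was described with 7 further lists of 120 genes, of which 118 were in the files and 54 had a mean of at least 1 FPKM. None of the 54 was called in the main limma fit, where 0.164% of all tested genes were. With sample weights 8 were called, where 5.17% of all tested genes were. Of the 54, 23 were higher and 31 lower in PS, and their median log2 fold change was -0.02, beside 0.003 for all genes. At an unadjusted p under 0.05, 6 were lower and 3 higher, where 3.29% and 2.66% of all tested genes were.

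All 7 other Toll-like receptor genes (Tlr1, Tlr5, Tlr6, Tlr8, Tlr11, Tlr12 and Tlr13) lay under a mean of 1 FPKM. The highest was Tlr13, a receptor for bacterial ribosomal RNA, with a mean of 0.679 FPKM and values from 0.5103 in PS replicate 1 to 0.9366 in control replicate 3. It falls outside the naming rule and was picked for its level.

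Among 14 co-receptors, chaperones and ligand carriers, 10 were tested, 4 higher and 6 lower, with log2 fold changes from -0.16 to 0.14. Cd14, which hands lipopolysaccharide to Tlr4, averaged 2.017 ± 0.181 FPKM in control and 1.705 ± 0.283 in PS (limma adjusted p = 0.916). Slc15a4, an endosomal transporter needed for signalling by receptors 7 and 9, stood at 3.254 ± 0.256 and 2.889 ± 0.0253, lower in all PS libraries (log2 fold change -0.13, limma adjusted p = 0.891). Lbp, the lipopolysaccharide-binding protein, was at 4.651 ± 0.384 and 5.211 ± 0.448, and Hsp90b1, the chaperone gp96 that folds these receptors, at 110.7 ± 1.02 and 118.3 ± 5.72. Neither passed (limma adjusted p = 0.918 and 0.921).

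Of 25 genes that carry the signal onward, 18 were tested, 6 higher and 12 lower, with a median log2 fold change of -0.04. Irak2, a kinase of the MyD88 complex, stood at 6.281, 6.422 and 6.395 FPKM in control and 4.916, 4.448 and 5.693 in PS. All PS values were lower (log2 fold change -0.30, SE 0.083, limma adjusted p = 0.523). Tab1, a partner of the kinase TAK1, stood at 5.93, 5.838 and 7.373 in control and 7.465, 8.368 and 7.964 in PS, all higher (0.28, limma adjusted p = 0.624). The ubiquitin ligase gene Peli1 was at 11.09 ± 0.585 and 10.07 ± 0.284, and Tbk1, a kinase upstream of interferon genes, at 16.19 ± 1.2 and 14.7 ± 0.894 (limma adjusted p = 0.856 and 0.89).

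Of 16 brakes of the pathway, 8 were tested, 4 in each direction. Nfkbia, the inhibitor of NF-kappaB that NF-kappaB itself induces, had the largest difference of the 54 genes. It stood at 29.66, 24.21 and 23.33 FPKM in control and 12.69, 12.45 and 17.71 in PS (log2 fold change -0.82, SE 0.135, limma adjusted p = 0.0736). It was called in 5 of 18 alternatives. The replicate block was 1 of them (limma adjusted p = 0.0224), where 0.393% of all tested genes were called. With no filter its limma adjusted p was 0.498. Without control replicate 1, PS replicate 1 and PS replicate 2 in turn, its limma adjusted p was 0.341, 0.332 and 0.349. Tnip1, a ubiquitin-binding inhibitor, was at 7.576 ± 0.523 and 8.67 ± 0.14, higher in all PS libraries (0.17, limma adjusted p = 0.752). Traf4 was at 2.407 ± 0.25 and 2.684 ± 0.0796, and Nlrx1, a mitochondrial NOD-like receptor, at 1.527 ± 0.37 and 1.812 ± 0.176 (limma adjusted p = 0.939 and 0.942).

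**Figure D4:**
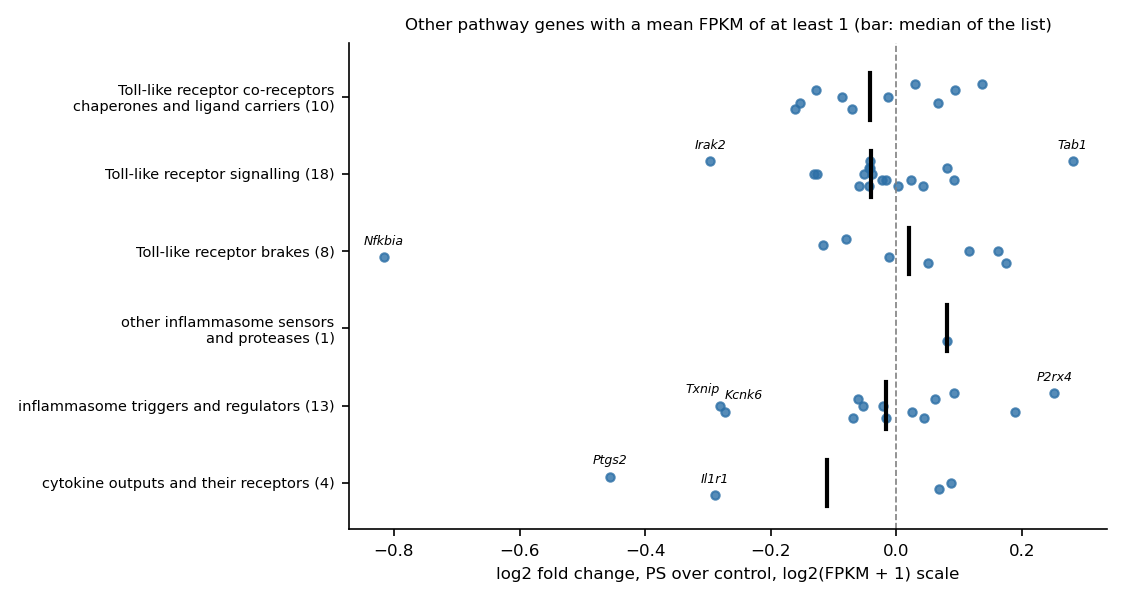
Log2 fold changes of PS over control (horizontal axis, log2(FPKM + 1) scale) of the 54 tested pathway genes other than the 10, by list, with the number tested in brackets. Points are genes, bars list medians, and genes beyond 0.25 in either direction are named; the list medians lie between -0.11 and 0.08, and Nfkbia lies farthest from 0, at -0.82.

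Other inflammasome sensors and proteases were listed with the membrane effectors Gsdmd, Gsdme and Ninj1, 18 genes in all. No listed sensor or protease, Aim2, Nlrc4 and Casp4 among them, reached a mean of 1 FPKM. Only Ninj1, which ruptures the membrane of dying cells, did, at 13.62 ± 1.21 and 14.45 ± 0.858 (limma adjusted p = 0.975). Of 17 inflammasome triggers and regulators, 13 were tested, 6 higher and 7 lower. P2rx4, an ATP-gated channel of microglia and neurons, stood at 3.296, 3.166 and 3.782 FPKM in control and 4.357, 4.233 and 4.148 in PS, all higher (log2 fold change 0.25, limma adjusted p = 0.555). Txnip, a thioredoxin inhibitor that can bind NLRP3, stood at 18.45, 17.01 and 21.72 and at 16.03, 15.39 and 14.88, all lower (-0.28, limma adjusted p = 0.57). The potassium channel gene Kcnk6 was also lower in all PS libraries, at 1.24 ± 0.18 and 0.8551 ± 0.159 (-0.27, limma adjusted p = 0.716), and Card19 was at 6.823 ± 1.16 and 7.863 ± 0.693 (limma adjusted p = 0.916).

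Of 23 cytokine outputs and their receptors, 21 were in the files and 4 were tested. Ptgs2, the inducible cyclooxygenase, stood at 2.677, 3.337 and 2.189 FPKM in control and 1.697, 1.573 and 1.843 in PS, all lower (log2 fold change -0.46, SE 0.112, limma adjusted p = 0.375). Il1r1, the signalling receptor of interleukin-1, stood at 1.65, 1.835 and 1.525 and at 1.188, 1.297 and 1.071, all lower (-0.29, SE 0.081, limma adjusted p = 0.533). Its partner Il1rap was at 2.93 ± 0.0641 and 3.12 ± 0.171, and the alarmin Il33 at 17.69 ± 6.35 and 18.29 ± 3.15, with a sign that depended on single libraries (limma adjusted p = 0.975 and 0.992). The classical outputs were near the limit of detection. By recovered reads, which are uncertain for genes this low, Il1b had 1 to 11 a library, Tnf 0 to 2 and Il6 0 to 1. Differences in these genes were not tested in the main fit, and how large a difference this depth could show was not estimated. These 3 are not genes of the naming rule and were picked with their values known.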

How the data were processed

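RNA from whole brain tissue in 6 libraries (3 control, 3 PS) was sequenced after TRIzol extraction and VAHTS Universal V6 library preparation, per the labels' protocols. The authors deposited FPKM values, 1 table per library. The tools fastp, HISAT2, HTSeq and R 3.2.0 and the build GRCm39 come from the submitters' processing notes, with no settings, so strand and annotation are unknown here.

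Samples were grouped by their labels. Genes with a mean of at least 1 FPKM were tested (12229, leaving 15149) as log2(FPKM + 1) with limma 3.58.1 in R 4.3.3 (two-sided, group as the only term, with a trend of the variance on level, leaving 4 degrees of freedom) and called at a Benjamini-Hochberg adjusted p under 0.05. Intervals are 95%, unadjusted. FPKM moved in whole steps: 99.99% of 26556 genes gave whole reads in every library within 0.02 reads, used for depth and limma-voom. A gene above 0 in few libraries passes this check easily, so its read numbers are uncertain. Above 0 in all 6 libraries were 19173 genes. Percentages of counting error cover counting only. The main fit was also run on simulated reads with the same low spread for every gene. Tlr7, Casp1 and Tlr9 varied more, so that run does not show how the fit performs for them.

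Both groups number their libraries 1 to 3. Deviations from group means correlated at 0.181, 0.185 and 0.161 between same-numbered libraries. The mean of these was 0.176, and the highest mean of another matching was 0.0326. The labels state no pairing, so the block rests on these values alone, and what same-numbered libraries share was not tested. A blocked fit stands beside the main one.

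The members and all lists were chosen with earlier results of these data known. Named were the 10 members, up to 4 tested genes per pathway list with the lowest unadjusted p, 6 microglial markers, of which 1 is not reported here, and, per tested member, the 3 genes of highest correlation, predicted genes passed over. Astrocyte, neuron and ependymal lists were also checked, with medians of 0.03, 0.01 and 0.18. The 18 alternatives were pseudocounts of 0.1 and 5, no filter, a filter at 5 FPKM, equal medians, quantile normalization, no variance trend, sample weights, the replicate block, limma-voom, each library left out, and 2 added after seeing the data (limma-voom with no filter, rescaling to microglial markers).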

Additional observations from a re-analysis of the deposited data

How the results depend on the processing

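None of Tlr3, Tlr7, Myd88, Casp1 and Il18 was called in the 17 alternatives that tested them, and their signs held in all of these. For Tlr7, whose groups did not overlap, leaving out a library could not turn the sign. For Tlr2, Tlr4, Tlr9, Nlrp3 and Pycard p-values were read only from the 2 fits with no filter, and none of these genes was called. The count of called genes over the whole table was 20, and it was 1 with no filter, which was higher, 9 with a mean of at least 5 FPKM, all lower, 632 with sample weights, of which 297 were higher, and 48 with the replicate block, of which 3 were higher. It was 11 with limma-voom on recovered reads and no filter, and 84 after rescaling to microglial markers, of which 12 were higher against 0 of 20; both were added after seeing the data. Leaving out single libraries gave 0 to 66 calls: 2 without control replicate 1, 66 without control replicate 3, of which 17 were higher, 2 without PS replicate 1 and 0 without PS replicate 2. Of the 54 other tested pathway genes, 8 were called with sample weights: Nfkbia, Ptgs2, Tab1, P2rx4, Txnip, Il1r1, Irak2 and Tbk1. That fit called 5.17% of all tested genes. Only 1 of the 54, Nfkbia, was called with the block, with limma-voom and after rescaling to microglial markers. Leaving out single libraries called 0 to 1 of the 54, Nfkbia without PS replicate 3. The block changed no other call among the named genes. The sign of Il33 turned with single libraries left out (-0.12 to 0.35). The cause was not tested. The largest shift of the median of all genes was 0.009. Reads were fewest for Tlr9 and Nlrp3, with 14 to 48 and 19 to 38 a library, and then Pycard and Tlr2, with 43 to 71 and 47 to 65. For Tlr9 the within-group spread of 59.2% was larger than the counting error of 19.2%.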
